A study of Mus musculus with 36 samples.

Results

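The Id genes Id1, Id2, Id3 and Id4 encode small nuclear proteins with a helix-loop-helix segment and no basic DNA-binding segment. Basic helix-loop-helix (bHLH) factors bind DNA as pairs, usually a tissue-specific factor such as Neurod1 or Myod1 with a widely present E protein (Tcf3, Tcf4 or Tcf12). An Id protein takes up the E protein in a pair that cannot bind DNA, and so restrains differentiation programs that bHLH factors drive. Id genes are direct targets of bone morphogenetic protein (BMP) signals carried by Smad1, Smad5 and Smad9, and in the retina they are known from dividing progenitors, glia and vessels more than from mature photoreceptors. The 4 genes were taken by symbol from a table of 15289 genes, and all 4 had a value in each of 33 RNA sequencing libraries.

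The libraries come from a study that turned mouse embryonic fibroblasts (MEF) into photoreceptor-like cells with 5 chemicals, which the labels do not name, in photoreceptor induction medium. Groups were MEF at passage 2, the starting cells, intermediates at day 5 and day 8 of treatment, reprogrammed cells at day 11 (CiPC) and rods isolated at postnatal days P2, P4, P5, P6, P10, P14 and P28. Every group is of the Nrl-GFP strain, in which the promoter of Nrl, a gene of rods, drives a green fluorescent protein, and cells were sorted by promoter reporter expression. The gate set for each group is not given in the sources used here. There were 3 libraries each of MEF, day 5, day 8, CiPC, P5, P6 and P14, 2 each of P2 and P4, and 4 each of P10 and P28. Rods of every age except P5 are listed as reused from an older series (for P10 replicate 3 and P14 replicate 3 no older sample is given), while P5 rods belong to the same series as the cultures. The labels do not say whether replicates are separate cultures or animals, so p-values measure the spread between these libraries, which may be technical.

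Values are the authors' normalized CPM, the reads of a gene scaled to the size of its library. Column sums ran from 719800 to 2277000, the read depth behind them is unknown, and the precision of a low value is therefore not known. Marker sums went with the labels: 8 rod genes summed to 3.88 to 4.2 CPM in MEF, 275 to 287 in CiPC, 4788 to 5101 in P5 rods and 314900 to 489000 in P28 rods, and 8 fibroblast genes to 10410 to 11880 in MEF and 102 to 130 in CiPC. P10 replicate 4 and P14 replicate 3 stood apart from their groups, with 3.87% and 3.95% of the signal in mitochondrial genes against 7.92% to 19.1% in the other libraries of those ages.

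The segment that makes these genes a family is shown first, because it is also where reads of one Id gene could most easily be given to another. In GRCm38 with GENCODE M21 annotation, the most alike 120 coding bases lie in the helix-loop-helix segment, at coding bases 178 to 297 of Id1 (chr2:152736518-152736637, plus strand), 109 to 228 of Id2 (chr12:25095783-25095902, minus strand), 124 to 243 of Id3 (chr4:136144002-136144121, plus strand) and 196 to 315 of Id4 (chr13:48261693-48261812, plus strand). Capitals mark bases identical in all 4 genes, and each sequence reads 5′ to 3′ along the coding strand.
Id1: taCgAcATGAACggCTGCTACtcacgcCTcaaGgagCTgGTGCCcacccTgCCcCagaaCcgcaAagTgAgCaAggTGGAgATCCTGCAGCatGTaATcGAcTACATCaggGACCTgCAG
Id2: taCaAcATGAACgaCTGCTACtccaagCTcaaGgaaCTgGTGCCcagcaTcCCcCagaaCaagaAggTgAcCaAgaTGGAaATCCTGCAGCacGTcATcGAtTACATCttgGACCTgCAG
Id3: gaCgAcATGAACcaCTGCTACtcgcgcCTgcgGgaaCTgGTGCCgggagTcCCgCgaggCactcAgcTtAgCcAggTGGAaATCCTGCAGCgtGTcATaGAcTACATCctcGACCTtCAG
Id4: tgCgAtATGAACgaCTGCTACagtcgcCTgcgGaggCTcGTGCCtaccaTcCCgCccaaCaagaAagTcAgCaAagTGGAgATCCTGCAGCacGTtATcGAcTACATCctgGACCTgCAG

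Of the 120 bases, 69 were identical in all 4 genes. Identity between pairs was highest for Id1 and Id2 at 81.7%, and lowest at 70.8% for Id3 with Id1 and with Id4. No stretch of 31 bases in the annotated transcripts was shared between any 2 Id genes. With other genes, Id1 and Id3 shared 0 of 1157 and 0 of 1760 such stretches, Id2 shared 39 of 2433 (1.6%) with the gene Gm6175, and Id4 shared 119 of 3819 (3.12%). The values of the 4 genes are thus separable at that length, and a small part of Id2 and Id4 is not unique in the genome's transcripts.

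The genes sit on 4 chromosomes: Id1 (ENSMUSG00000042745.9) at chr2:152736251-152737410, Id2 (ENSMUSG00000020644.9) at chr12:25093799-25097140, Id3 (ENSMUSG00000007872.3) at chr4:136143497-136145755 and Id4 (ENSMUSG00000021379.1) at chr13:48261228-48266026. All are annotated as protein coding. Id4 is overlapped on the opposite strand by the antisense gene A330033J07Rik and the long noncoding RNA Gm49291. Whether the libraries kept strand is not given in the sources used here, so reads from the small part of Id4 that such overlapping transcripts share cannot be assigned to one gene.

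RefSeq's promoter table (GRCm38.p6) held 3 of the 4 genes, Id2, Id3 and Id4. The 250 bases before the RefSeq start of Id4 hold no annotated exon of that gene. Exons of other genes were not searched for in the windows. The Id4 window is shown because this gene had the lowest level per length of the family. It is chr13:48260866-48261115 on the plus strand. Capitals mark matches, on either strand, to GGCGCC (a GC-rich Smad1-type motif), CCGCCC (an Sp-type GC box) and TGACG (the core of a cAMP response element).
Id4 promoter: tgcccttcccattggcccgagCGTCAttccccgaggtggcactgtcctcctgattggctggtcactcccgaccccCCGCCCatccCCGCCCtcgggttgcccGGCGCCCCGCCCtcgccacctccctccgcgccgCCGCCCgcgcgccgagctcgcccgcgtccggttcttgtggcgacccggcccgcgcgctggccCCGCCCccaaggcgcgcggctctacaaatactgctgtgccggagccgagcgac

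GGCGCC was found 148 to 143 bases before the Id4 start and 231 to 226 bases before the Id2 start. It is held by 9.6% of 32851 RefSeq promoter windows of the same length. CCGCCC was found 5 times in the Id4 window, 1 time in that of Id2 and 2 times, on the minus strand, in that of Id3, and 32.7% of all windows hold it. TGACG was found on the minus strand in the windows of Id3 and Id4, and 17.8% of all windows hold it. GTCT, the short Smad motif (82.9% of all windows), and CANNTG, the E-box that bHLH pairs bind (66.2%), were searched on both strands as well. GTCT was found in the Id2 and Id3 windows and CANNTG in that of Id2. All 250 bases of the Id3 window and 161 of the 250 of the Id2 window lie in annotated exons of the same gene. Their matches are thus partly or wholly in transcribed sequence, while no exon of Id4 itself lies in its window. The matches describe letters only, since no binding was measured.

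Per kilobase of annotated exon, Id3 led the family in fibroblasts and Id4 was lowest in every group. In MEF the mean level was 62.9 ± 7.04 CPM per kb (SD, n = 3) for Id3, 18.7 ± 0.184 for Id1, 10.1 ± 0.539 for Id2 and 2.43 ± 0.399 for Id4. In CiPC the first 3 genes lay close together, at 32.2 ± 2.59 CPM per kb for Id1, 27.8 ± 7.87 for Id3 and 27.4 ± 1.32 for Id2, with Id4 at 2.44 ± 0.16. P2 rods had a similar order, with 30.6 ± 7.99 CPM per kb for Id1, 25.5 ± 6.26 for Id3, 17.4 ± 2.21 for Id2 and 4.26 ± 0.718 for Id4 (n = 2). These are levels compared between genes, which depend on the annotated lengths of 1160, 2438, 1791 and 3849 bases for Id1 to Id4. All other values below are CPM, compared within a gene.

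**Figure D1:**
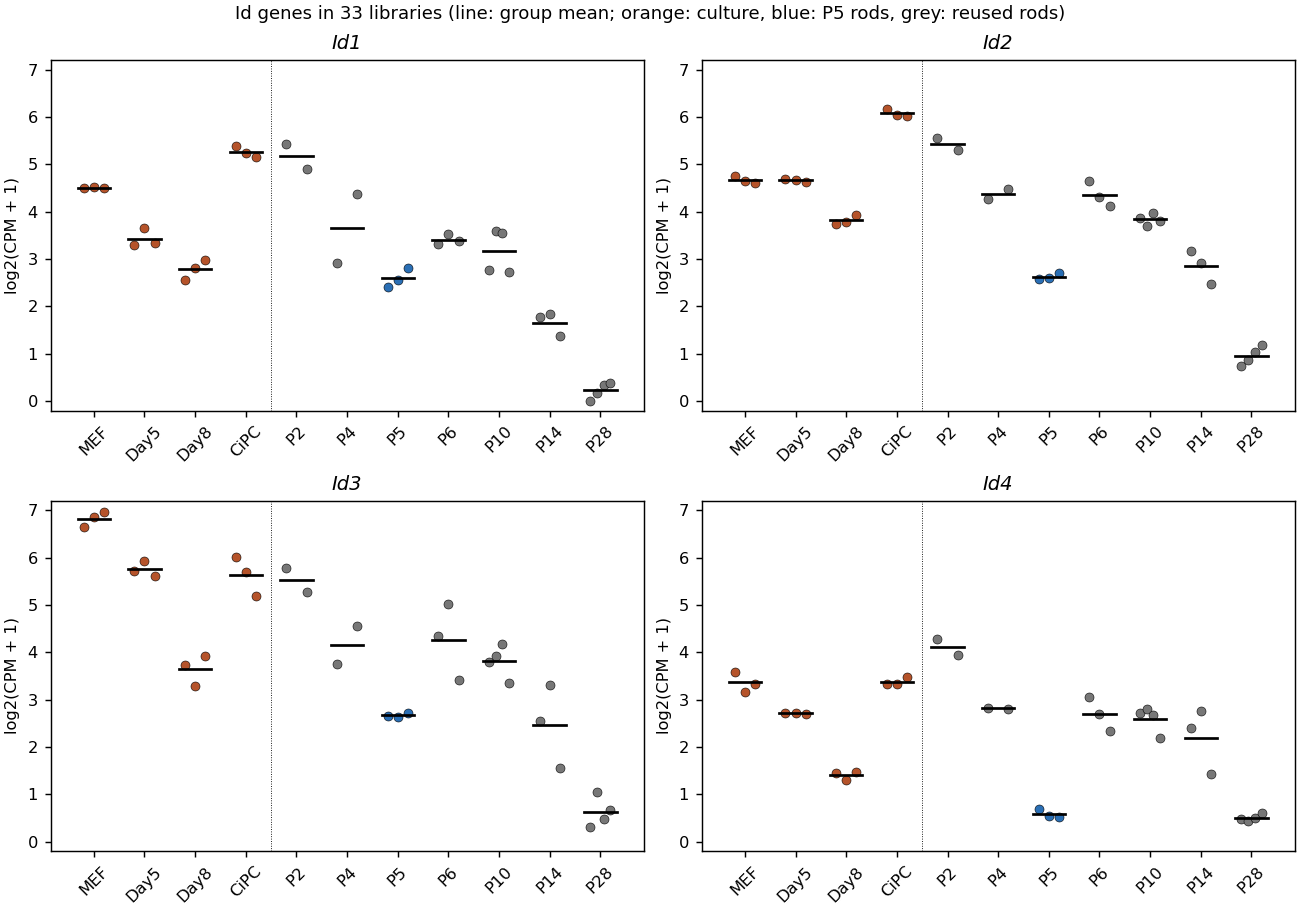
Levels of Id1, Id2, Id3 and Id4 as log2(CPM + 1) in each of the 33 libraries, by group, with a line at each group mean; orange points are the culture, blue points P5 rods and grey points the reused rods. Each gene is lower at day 8 than in MEF and higher again in CiPC, the mean of P28 rods is the lowest, with P5 rods below both P4 and P6 rods for Id2, Id3 and Id4.

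Across the 11 groups, Id1 was highest in CiPC (37.4 ± 3.01 CPM, n = 3) and P2 rods (35.5 ± 9.27 CPM, n = 2), whose ranges overlapped, followed by MEF (21.7 ± 0.214 CPM, n = 3), which overlapped with neither P2 above nor P4 below, though the P4 libraries spread widely (13.1 ± 9.29 CPM, n = 2). P4, day 5, P6, P10, day 8 and P5 followed in that order of means, each overlapping its neighbour, and P14 and P28 each lay apart at the bottom. Id2 was highest in CiPC (66.8 ± 3.22 CPM, n = 3), then P2 (42.3 ± 5.39 CPM, n = 2), then MEF and day 5, which overlapped at 24.6 ± 1.31 and 24.4 ± 0.522 CPM (n = 3 each). P4 with P6, P10 with day 8, and P14 with P5 were further overlapping pairs of Id2, above P28. Id3 was highest in MEF (112.6 ± 12.6 CPM, n = 3), above day 5, CiPC and P2 at 53.1 ± 6.06, 49.8 ± 14.1 and 45.65 ± 11.2 CPM, which overlapped in turn. Id3 in P6, P4, P10 and day 8 followed in an overlapping run, then P5 and P14, and P28 was lowest. Id4 was highest in P2 (16.4 ± 2.76 CPM, n = 2), then CiPC and MEF, which overlapped at 9.39 ± 0.617 and 9.37 ± 1.53 CPM. P4, P6, day 5, P10 and P14 overlapped in turn for Id4, P14 also overlapped with day 8, and P5 and P28 overlapped at the bottom.

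The culture course opens with the step from MEF to day 5, in which Id1 and Id3 fell, Id4 was lower by less than 2-fold and Id2 was level. Changes were tested with limma on log2(CPM + 1) with Benjamini-Hochberg adjustment over all genes tested, and a gene was called, that is, rose or fell, at an adjusted p under 0.05 and a difference of at least 2-fold. Id1, the family member best known as an early BMP response gene, was at 21.8, 21.9 and 21.5 CPM in the 3 MEF libraries and 8.83, 11.6 and 9.11 at day 5. Id3, a close relative with much the same induction, was at 99.3, 114 and 124 CPM in MEF and 51.7, 59.7 and 47.9 at day 5. Neither gene's groups overlapped. Id1 fell by 1.08 ± 0.101 on the log2 scale (SE, adjusted p = 5.44e-06) and Id3 fell by 1.07 ± 0.0949 (adjusted p = 3.67e-06).

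Id2, which is also expressed in many cell types without BMP, was at 26.0, 24.2 and 23.5 CPM in MEF and 24.9, 24.4 and 23.8 at day 5. Its groups overlapped and the log2 difference was -0.01 with a 95% interval of -0.15 to 0.13 (adjusted p = 0.887). Id4, known from neural progenitors and stem cells of several tissues, was at 11.0, 8.01 and 9.07 CPM in MEF and 5.58, 5.59 and 5.49 at day 5, without overlap. Its log2 difference of -0.65 ± 0.115 (adjusted p = 0.000506) stayed under 2-fold. So 2 of 4 members were called lower, where 13.7% of the 13598 genes tested were. Both calls lay close to the fold threshold: Id1 was at -0.85 with a pseudocount of 5, and Id3 at -0.93 after quantile normalization and -1 without MEF replicate 3, all under the 2-fold limit. Markers of cell types moved in this step as well. All 5 macrophage genes fell, their sum going from 150 to 171 CPM in MEF to 8.12 to 8.74 at day 5, and 6 of 8 fibroblast genes rose and 1 fell, with sums of 10410 to 11880 and 44480 to 46600 CPM. All 3 tested Müller glia genes, Slc1a3, Glul and Apoe, rose. Rlbp1, Kcnj10 and Aqp4 of that list had means under 1 CPM in both groups and were not tested. Of 4 tested endothelial genes 2 fell, 1 did not pass and 1, Cdh5, rose, from a mean of 0.725 to 3.78 CPM. The part of these cell types in the lower Id1 and Id3 was not tested.

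From day 5 to day 8, Id3 and Id4 fell and Id1 and Id2 were lower by less than 2-fold. Id3 was at 12.3, 8.78 and 14.3 CPM at day 8 and Id4 at 1.74, 1.48 and 1.77, each below all day 5 libraries. Id3 fell by 2.1 ± 0.152 on the log2 scale (adjusted p = 3.82e-06, limma) and Id4 fell by 1.3 ± 0.11 (adjusted p = 1.08e-05). Id1 was at 4.88, 6.03 and 6.85 CPM and Id2 at 12.5, 12.8 and 14.1, again below every day 5 library. Their log2 differences were -0.65 ± 0.14 (adjusted p = 0.00407) and -0.85 ± 0.0795 (adjusted p = 2.18e-05). Far fewer genes were called in this step, 3.01% lower of 13259 tested, against 2 of the 4 Id genes. Id4 did not pass with a pseudocount of 5, at -0.66. By day 8 the mean of Id3 was 10.5% of that in MEF, and those of Id1 and Id2 were 27.2% and 53.4%. In this step 2 of 4 tested Müller glia genes rose, while 1 of 2 tested progenitor genes, 1 of 2 tested endothelial genes and 1 of 8 fibroblast genes fell. Of 3 tested macrophage genes 0 were called by limma (3 at an unadjusted p under 0.05). Their part in the Id levels was not tested. The libraries are bulk, so fewer cells of a type and less RNA per cell cannot be told apart.

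Between day 8 and the sorted CiPC of day 11, each Id gene rose. Id1 was at 40.6, 36.9 and 34.6 CPM in CiPC and Id2 at 70.4, 65.4 and 64.4. Id3 was at 63.6, 50.5 and 35.5 CPM and Id4 at 8.97, 9.09 and 10.1. For no gene did a CiPC library overlap with day 8. The ratio of CiPC to day 8 means was 6.32 for Id1, 5.09 for Id2 and 4.23 for Id3. On the log2(CPM + 1) scale the genes rose by 2.48 ± 0.124 (Id1, adjusted p = 2.11e-07), 2.26 ± 0.0797 (Id2, adjusted p = 2.19e-08), 1.98 ± 0.225 (Id3, adjusted p = 5.23e-05) and 1.96 ± 0.104 (Id4, adjusted p = 3.16e-07). So 4 of 4 were called higher, where 15.2% of the 13792 genes tested were. Id4, the lowest gene, was at 1.11 with a pseudocount of 5, still called.

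Markers of other cell types moved in the same step. A sum over 6 genes of retinal progenitors was 21.7 to 28.8 CPM at day 8 and 1291 to 1485 in CiPC, and all 6 rose. A sum over 6 genes of Müller glia was 1253 to 1557 CPM at day 8 and 1934 to 1982 in CiPC, with 3 rising, 2 falling and 1 not passing. Among those, Rlbp1, a retinoid carrier of Müller glia, went from a mean of 0.0316 to 263 CPM and Kcnj10, their potassium channel, from 0.165 to 108, while Aqp4 was at 0.404 in CiPC. Astrocyte genes summed to 6.33 to 7.67 CPM at day 8 and 60.7 to 67.4 in CiPC, and 2 of 3 rose, Gfap, a filament protein of astrocytes and reactive glia, going from a mean of 0.0829 to 50.3 CPM. Both tested endothelial genes rose. Kdr, a growth factor receptor that retinal progenitors also carry, went from 6.16 to 625 CPM, while the other 4 in the table stayed low in CiPC, with Emcn at 2.02 CPM (0.0903 at day 8) and Pecam1, Cdh5 and Cldn5 at 0.759, 0.878 and 0.0663. Of 4 tested macrophage genes 2 rose, the list's sum going from 13.1 to 15.7 CPM to 29.8 to 34.8. The part of these cell types in the Id levels of CiPC was not tested.

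Against the starting fibroblasts, CiPC had more Id2, less Id3 and about as much Id4. Id2 rose by 1.41 ± 0.0695 on the log2 scale (adjusted p = 1.44e-07), its 3 CiPC libraries all lying above the 3 of MEF. Id3 fell by 1.19 ± 0.184 (adjusted p = 0.000301), with the highest CiPC library at 63.6 CPM and the lowest MEF library at 99.3. Id1 was higher by 0.75 ± 0.0773 (adjusted p = 1.99e-05), without overlap but under 2-fold. Id4 differed by 0.01 ± 0.122, with a 95% interval of -0.27 to 0.29 (adjusted p = 0.938), and its groups overlapped. The family thus had 1 member called higher and 1 called lower of 4, where 16.5% and 17.2% of the 13719 genes tested were. CiPC replicate 3 had the lowest Id3 of its group, and without it Id3 was at -0.97 and no longer passed the fold threshold. All 6 progenitor genes, 4 of 5 tested Müller glia genes and 3 of 3 astrocyte genes rose here, while all 8 fibroblast genes and 3 of 5 macrophage genes fell, and their part was not tested. This comparison shares the CiPC libraries with that against day 8 and the MEF libraries with that of day 5.

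**Figure D2:**
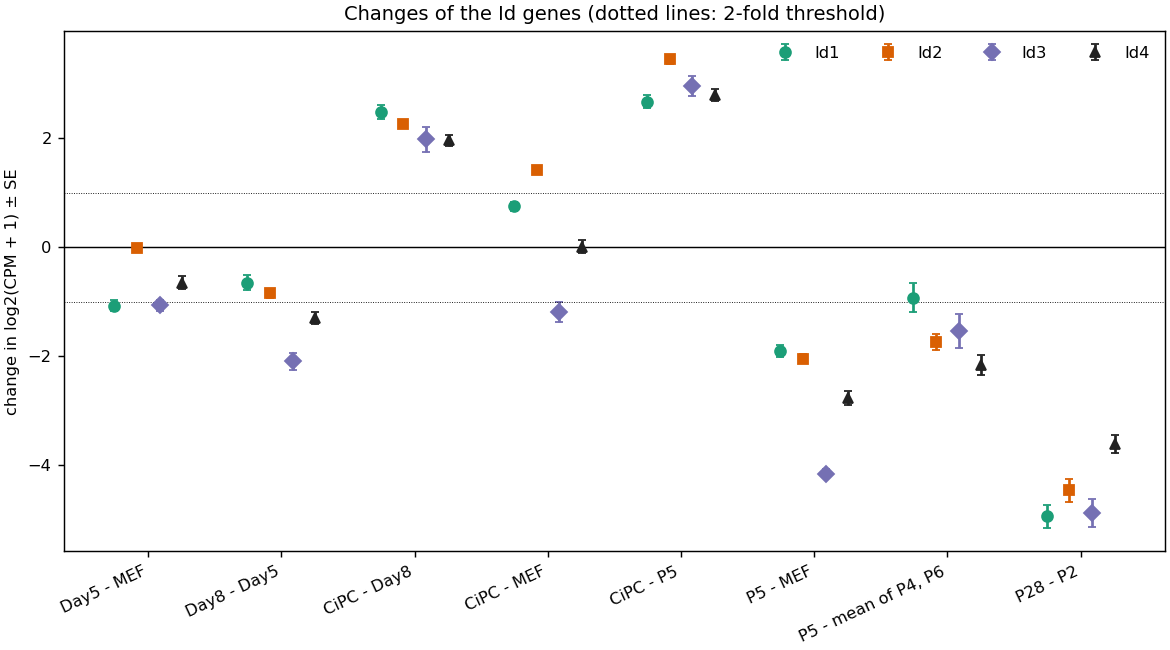
Change of each Id gene on the log2(CPM + 1) scale, with its standard error, in 8 comparisons; dotted lines mark a 2-fold difference. The points of CiPC against day 8 and CiPC against P5 rods lie between 1.96 and 3.45, while in CiPC against MEF the genes spread from -1.19 for Id3 to 1.41 for Id2.

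P5 rods, sequenced in the same series as the cultures, had little of any Id gene. Id1 was at 4.29, 4.91 and 6.03 CPM there, Id2 at 4.96, 5.09 and 5.52, and Id3 at 5.27, 5.20 and 5.58. Id4 was at 0.622, 0.466 and 0.432 CPM. In CiPC Id1 was higher by 2.67 ± 0.12 on the log2 scale (adjusted p = 2.19e-08), Id2 by 3.45 ± 0.0823 (adjusted p = 3.05e-10) and Id3 by 2.96 ± 0.178 (adjusted p = 1.71e-07), and these 3 passed the expression filter in both groups. Id4 rose by 2.79 ± 0.107 (adjusted p = 6.92e-09) but passed the filter, a CPM of at least 1 in 3 libraries, through CiPC alone, so that it had to differ. Of 13546 genes tested, 24.8% were called higher in CiPC. Markers of other cell types were higher in CiPC too. All 5 tested Müller glia genes were called higher, with sums of 1934 to 1982 CPM against 160 to 177 in P5, as were 4 of 6 progenitor genes, at 1291 to 1485 against 524 to 562 CPM, with 1 lower. All 3 astrocyte genes, all 4 tested macrophage genes, 2 of 3 tested endothelial genes and 6 of 8 fibroblast genes were called higher as well. Their part in the Id differences was not tested.

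Set against fibroblasts, P5 rods were lower in each gene. Id3 fell by 4.16 ± 0.0877 on the log2 scale (adjusted p = 8.23e-11), from a mean of 112.6 to 5.35 CPM. Id1 fell by 1.91 ± 0.11 (adjusted p = 9.74e-08) and Id2 fell by 2.05 ± 0.0829 (adjusted p = 7.41e-09). Id4 fell by 2.77 ± 0.124 (adjusted p = 1.55e-08), having passed the filter through MEF alone. Of 14085 genes tested, 30.5% were called lower. All 8 fibroblast genes and all 5 macrophage genes fell in the same comparison. Of 6 progenitor genes 4 rose and 1, Ccnd1, fell, from a mean of 296 to 22.7 CPM. Of 5 tested Müller glia genes 4 rose and 1, Apoe, fell, from a mean of 152 to 18.8 CPM. The part of these cell types in the lower Id levels was not tested. The comparisons of P5 rods with CiPC and with MEF share the P5 libraries.

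The size of these differences rests on which rods are used. P5 rods were set against the average of the nearest ages in the reused series, P4 and P6. Id1 was at 6.58 and 19.7 CPM at P4 and 8.96, 10.5 and 9.44 at P6. Id2 was at 18.3 and 21.2 CPM at P4 and 23.9, 19.0 and 16.3 at P6. Id3 was at 12.4 and 22.5 CPM at P4 and 19.4, 31.5 and 9.62 at P6. Every P4 and P6 library of these genes lay above the 3 of P5, and the 2 P4 libraries of Id1 and of Id3 were far apart. Id4 was at 6.11 and 6.01 CPM at P4 and 7.28, 5.45 and 4.04 at P6, all above its 3 P5 values.

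In P5 rods Id2 fell by 1.74 ± 0.142 on the log2 scale (adjusted p = 2.4e-06), Id3 fell by 1.54 ± 0.31 (adjusted p = 0.00127) and Id4 fell by 2.17 ± 0.18 (adjusted p = 2.66e-06), Id4 having passed the filter through P4 and P6 alone. Id1 was at -0.93 ± 0.27 (adjusted p = 0.0108), under 2-fold; without P4 replicate 1 it was called at -1.30, without P5 replicate 3 at -1.04, and without P4 replicate 2 it was at -0.57. Of 13652 genes tested, 13.1% were called lower in P5. Series and day of age cannot be told apart here. In the same comparison 5 of 5 tested Müller glia genes fell, their sum being 160 to 177 CPM at P5 against 597 to 653 at P4 and 497 to 787 at P6, and 5 of 6 progenitor genes fell, at 524 to 562 CPM against 731 to 936 and 633 to 850, with 1 rising. Of 4 tested macrophage genes 3 fell as well. Their part in the lower Id levels of P5 rods was not tested.

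With P4 and P6 rods in place of P5, an alternative chosen after seeing the data, CiPC remained higher by 1.73 in Id1, 1.72 in Id2 and 1.42 in Id3 on the log2 scale, all called. Id4 was higher by 0.62 (adjusted p = 0.00684, limma), under 2-fold. Against MEF, P4 and P6 rods were lower by more than 2-fold in Id3 alone, at -2.62. The log2 differences of the others were -0.98 for Id1 (adjusted p = 0.00602), -0.31 for Id2 (adjusted p = 0.0499) and -0.61 for Id4 (adjusted p = 0.00979).

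In rods the family fell with age. Id1 was at 42.0 and 28.9 CPM at P2, 5.82, 11.1, 10.6 and 5.64 at P10, 2.40, 2.58 and 1.59 at P14, and 0.134, 0.265 and 0.313 in 3 libraries of P28, with the fourth listed at 0. Id2 was at 46.1 and 38.5 CPM at P2, 13.5, 12, 14.7 and 12.9 at P10, 7.96, 6.52 and 4.57 at P14, and 0.671, 0.828, 1.05 and 1.28 at P28. For both genes, all P14 libraries lay below all P10 libraries and above all of P28.

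Id3 was at 53.6 and 37.7 CPM at P2, 12.9, 14.2, 17.2 and 9.22 at P10, 4.8, 8.83 and 1.95 at P14, and 0.236, 1.06, 0.404 and 0.604 at P28. Id4 was at 18.3 and 14.4 CPM at P2, 5.54, 5.97, 5.37 and 3.55 at P10, 4.33, 5.77 and 1.68 at P14, and 0.385, 0.351, 0.418 and 0.530 at P28. P14 spread widely in these 2 genes, and its Id4 overlapped with P10.

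A line was fitted to log2 postnatal day over the 6 ages of the reused series, and its slope is stated as the log2 change from P2 to P28. It was -4.83 ± 0.415 for Id1 (adjusted p = 4.24e-09), -4.46 ± 0.382 for Id2 (adjusted p = 4.18e-09), -4.84 ± 0.521 for Id3 (adjusted p = 8.51e-08) and -3.25 ± 0.369 for Id4 (adjusted p = 1.7e-07). All 4 were called lower, where 32.6% of the 13884 genes tested were and the median over all genes was -0.31. P28 against P2 gave -4.94 ± 0.212, -4.47 ± 0.203, -4.89 ± 0.258 and -3.61 ± 0.167 for Id1 to Id4 (adjusted p at most 1.47e-06). Here 33.1% of 13021 genes were called lower. Id2 passed the filter in both groups, and the others through P2 alone. P28 values lie near the pseudocount of 1: with a pseudocount of 5 the slopes were -2.79, -2.95, -3.07 and -1.71, and that of Id4 was -2.01 after quantile normalization, all called.

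P14 replicate 3 was below its group mean in all 4 genes, by 0.29, 0.37, 0.90 and 0.78 on the log2 scale for Id1 to Id4, as was P10 replicate 4, by 0.43, 0.03, 0.46 and 0.41. Those are the libraries with the low mitochondrial share. Without both, the slopes were -4.8, -4.46, -4.76 and -3.22, as large as with them. Progenitor markers fell over the same ages, their sum going from 1600 to 1858 CPM at P2 to 12.7 to 24.2 at P28, and 6 of 6 fell in the slope. Müller glia markers were at 550 to 625 CPM at P2, 647 to 905 at P10, 719 to 778 at P14 and 153 to 370 at P28, with 3 falling and 1 rising, the latter where 21.4% of all genes rose. Of 4 tested endothelial genes 2 fell and 1 rose. Kdr had a mean of 282 CPM at P2 and 6.43 at P28 and Cldn5 of 5.62 and 0.203, while Pecam1 was at 3.01 and 19.3. Of 4 tested macrophage genes 1 fell. The part of each cell type in the fall of the Id genes was not tested.

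**Figure D3:**
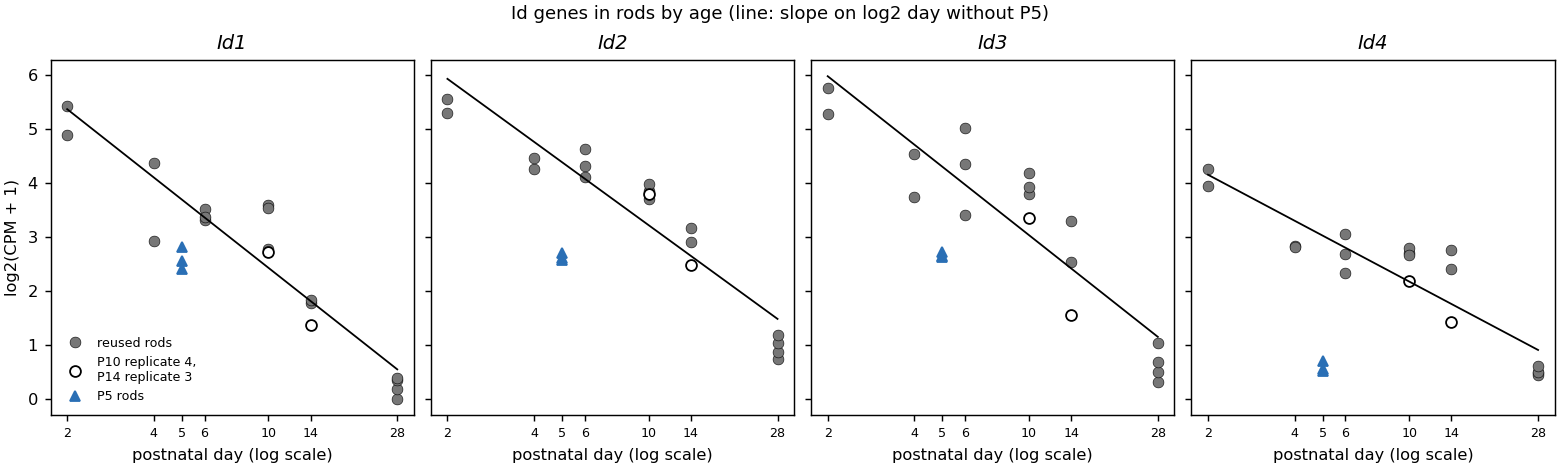
Levels of the 4 Id genes as log2(CPM + 1) in rods against postnatal day on a log scale; the line is the fitted slope without P5, open circles are P10 replicate 4 and P14 replicate 3, and blue triangles are P5 rods. The slopes range from -3.25 for Id4 to -4.84 for Id3 over the whole range, and the P5 points lie below those of P4 and P6.

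Genes that act upstream of the family were taken from lists of the pathway and of partner genes, of which 8 members, Gdf5 and Gdf7 among them, were not in the table. From MEF to day 5, 9 BMP ligands were tested: 4 rose, led by Bmp7 at 2.17 and Bmp2 at 1.98, 2 fell, with Gdf6 at -3.02, and 3 did not pass. The median was 0.29 against 0.01 over all genes, of which 28.4% were called either way. Bmp3, 1 of those that rose, passed the filter through day 5 alone, so that it had to be higher. Bmp8a, 1 of those that fell, passed it through MEF alone, so that it had to be lower. The counts are thus not set against that share. Bmp4, the ligand best known for inducing Id genes, had a mean of 46.8 CPM in MEF, then 24.0 at day 5, 11.8 at day 8 and finally 6.59 in CiPC. Of 11 receptors 2 rose, Tgfbr3, a co-receptor of TGF-beta, by 6.05 (means of 5.59 CPM in MEF and 433 at day 5) and Tgfbr2, the type II receptor of TGF-beta, by 1.66. A further 3 fell, among them Bmpr1b, a type I receptor, at -2.02 and Acvrl1, the endothelial-type receptor, at -1.58. Of the Smads, the carriers of the signal into the nucleus, Smad2 and Smad3 of the TGF-beta branch fell by 1.09 and 1.11, while Smad1, Smad4, Smad5 and Smad9 did not pass.

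Antagonists, which bind BMP outside the cell, shifted in kind. In MEF Grem1 was at 242 CPM and Fst at 126, and in CiPC at 4.86 and 2.70. From MEF to CiPC 9 of 13 antagonists fell, with Grem1 at -5.38 and Fst at -5.1, 2 rose and 2 did not pass, the median being -1.58 against -0.05 over all genes. Chrdl1, a chordin-like BMP binder known in the retina, rose by 7.14, from 0.320 to 184 CPM. In that comparison 33.7% of genes were called either way. Chrdl1 and Sostdc1, the 2 that rose, passed the filter through CiPC alone, so that they had to be higher. Nog passed it through MEF alone, so that it had to be lower.

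Other targets of BMP signals went in mixed directions in the culture and fell with age in rods. Of 9 tested at day 5 against MEF, Smad7, an inhibitory Smad that TGF-beta induces too, fell by 4.82 and Msx2, a homeobox gene of mesenchyme, by 3.01, while Atoh8 rose by 1.17 and 6 did not pass, the median being -0.74. From day 5 to day 8, when Id3 and Id4 fell, 0 of 8 tested targets passed the limma test and the fold threshold in either direction (6 at an unadjusted p under 0.05), with a median of -0.15, where 6.61% of all genes were called either way. From day 8 to CiPC, Hey1, a Notch and BMP target, rose by 2.07, the BMP decoy receptor Bambi by 2.04 and Smad7 by 1.93, while 2 fell, with Msx1 at -2.44, and 3 did not pass. Here 31.8% of all genes were called either way. Msx1 passed the filter through day 8 alone, so that it had to be lower. In the rod age slope all 6 tested targets fell, as the Id genes did and where 32.6% of all genes were called lower, with a median of -2.96, Hey1 at -3.72 and Bambi at -3.1 foremost.

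E proteins, the partners that Id proteins bind, were well expressed in every culture group. Tcf3, whose product is E2A, had a mean of 76.8 CPM in MEF, then 103 at day 5, 52.5 at day 8 and finally 60.1 in CiPC. Tcf4 was at 116, 138, 124 and 224 CPM and Tcf12 at 128, 166, 129 and 189 in the same groups. In the 4 comparisons among culture groups, 0 of these 3 genes were called by limma at the fold threshold, while all 3 had an unadjusted p under 0.05 at day 5 against MEF and at day 8 against day 5, and 2 in both comparisons of CiPC. The share of all genes called either way was 28.4% and 6.61% in the first 2 of these and 31.8% and 33.7% in CiPC against day 8 and against MEF, so 0 of 3 is not set apart from it. Some lay just under the limit, Tcf4 at 0.85 and 0.94 in the comparisons of CiPC and Tcf3 at -0.98 in day 8 against day 5. In the rod age slope each of the 3 fell, Tcf3 at -3.93 ± 0.253, Tcf4 at -3.34 ± 0.374 and Tcf12 at -1.13 ± 0.207 (adjusted p at most 7.03e-05, limma). At P28 Tcf12 was still at 129 CPM and Tcf4 at 34.0, with Tcf3 at 4.82.

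The bHLH factors that E proteins pair with turned over between MEF and CiPC. Neurod1, a factor of photoreceptor precursors, went from 0.209 CPM in MEF and 0.140 at day 8 to 39.4 in CiPC, and was at 538 in P5 and 1660 in P4 rods. Neurod4 went from 0.0771 at day 8 to 66.2 CPM in CiPC. From day 8 to CiPC 8 of 10 tested neuronal and retinal factors rose and 2 did not pass, where 15.2% of all genes were called higher. Neurod4 rose by 5.96, Neurod1 by 5.15, Hes1 by 3.9 and Neurog2 by 3.43. Of the 8, Neurod1, Neurod4, Neurog2, Bhlhe23, Olig1 and Hes5 passed the filter through CiPC alone, so that they had to be higher. Hes1 and Bhlhe22 passed it in both groups. In the same step 5 of 5 tested mesenchyme and muscle factors fell, where 16.6% of all genes did, among them Twist2 at -4.36, Myog at -3.18 and Twist1 at -2.43. Twist2, Hand2, Myod1 and Myog passed the filter through day 8 alone, so that they had to be lower. Only Twist1 passed it in both groups, so the count is not set against that share. So neuronal bHLH genes and all 4 Id genes rose in the same step, and a link between them was not tested. Hes1 in the neuronal and retinal list is itself a repressor of the bHLH class. In the age slope 12 of 14 tested members of that list fell, with Neurod4 at -8.38, where 32.6% of all genes were called lower.

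At day 5, 5 of 7 mesenchyme and muscle factors rose against MEF, where 14.7% of all genes were called higher. Myod1, the muscle determinant, was at 2.51, Twist1 at 2.02 and Myog at 1.97. Scx was at -1.82, called lower, and 1 did not pass. Msc, 1 of the 5, passed the filter through day 5 alone, so that it had to be higher. Scx passed it through MEF alone, so that it had to be lower. The count is thus not set against that share. Id1 and Id3, known inhibitors of Myod1 pairs, fell in that step, while Id2 was level and Id4 was lower by less than 2-fold. From day 5 to day 8 Myod1 fell by 2.46 and Myog by 2.38, as Id3 and Id4 fell too. A link between the Id genes and these factors was not tested. These 2 comparisons share the day 5 libraries.

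**Figure D4:**
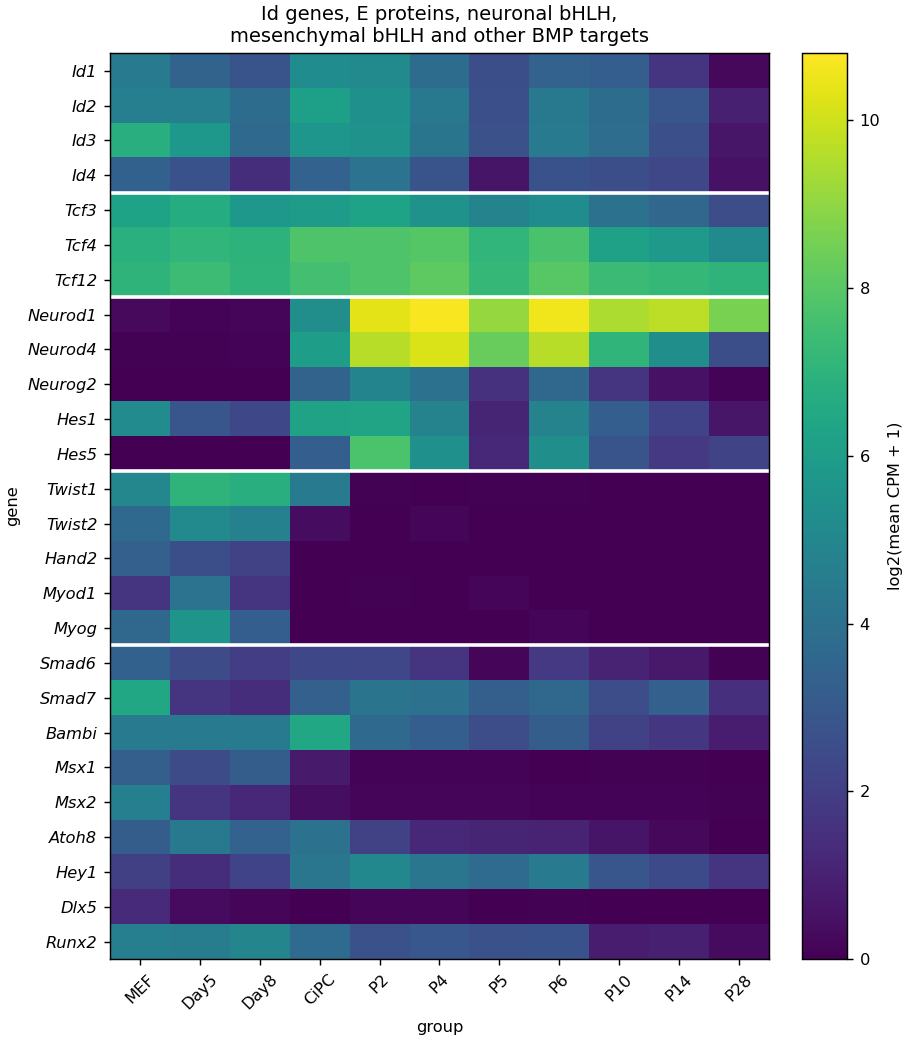
Heat map of log2(mean CPM + 1) in 11 groups for the Id genes, E proteins, selected neuronal and mesenchymal bHLH factors and other BMP targets, separated by white lines. Neurod1 and Neurod4 are dark in MEF, day 5 and day 8 and lighter from CiPC on, Twist2 and Myog show the reverse, and the 3 E proteins stay light in every culture group.

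P5 rods were lower than P4 and P6 rods in neuronal bHLH genes as well, with 10 of 14 tested falling and 1 rising. Of all genes, 13.1% were called lower and 21.3% either way. Ptf1a, Atoh7, Olig2 and Neurod6 had P5 means of 0.0512, 0.312, 0.58 and 0.256 CPM. They passed the filter through P4 and P6 alone and could not be called higher, so the count is not set against those shares. Hes5 was at -4.05 and Hes1 at -3.68, while Bhlhe23 rose by 3.09. Of 6 other BMP targets only Smad6, an inhibitory Smad that BMP induces, passed, at -1.52. Smad6 had a mean of 0.113 CPM in P5, 2.08 in P4 and 2.48 in P6. It passed the filter through P4 and P6 alone, so that it could not be called higher.

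The genes whose group means ran most like each Id gene were ranked by Pearson's r over the 11 group means of log2(CPM + 1), among 11416 genes that varied and were well expressed in some group. For Id1 they were Smox, a spermine oxidase (r = 0.965), Ddr1, a collagen receptor (0.962), Id2 (0.962), Fam65b (0.959) and Cnp, a myelin enzyme (0.956). For Id2 they were Rap1gap, which switches off the small GTPase Rap (r = 0.98), Lrrc42 (0.975), Id1 (0.962), Metrn (0.961) and Cdc42ep4 (0.956). For Id3 they were Cobl, an actin nucleator (r = 0.955), Arhgef19 (0.941), the G protein subunit gene Gnb4 (0.941), Dpy19l3 (0.94) and the G protein subunit gene Gnai2 (0.936), with no family member among them. For Id4 they were the Notch effector Hes1 (r = 0.929), Id2 (0.878), Fam65b (0.877), Lrrc42 (0.871) and Metrn (0.862). Id1 and Id2 were thus each other's rank 3, and Id4 had 1 near companion, Hes1, at 35.8 CPM in MEF, 4.06 at day 8, 73.9 in CiPC, 1.17 in P5 and 0.565 in P28 rods. Between members, r ran from 0.837 for Id3 with Id4 to 0.962 for Id1 with Id2. The points share their libraries and the drop from young to old rods, and r is a description over 11 points.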

How the data were processed

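The table holds 33 libraries in 11 groups taken from the labels; 3 rod samples of P3 were not analysed here. The submitters' processing notes name kallisto as the quantifier, while its version and index, the genome build and the strand of the kit were not given in the sources used here. The deposited values are a CPM signal, which the authors scaled across libraries in a way that the labels do not state. They are not whole counts, so the depth per library and the precision it gives are unknown and no count model was fitted.

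Values were analysed as log2(CPM + 1), which understates the change of low genes. Each comparison used only its own groups in limma 3.58.1 (R 4.3.3), with moderated variances and a mean trend. A gene was tested if 3 or more libraries of the fit reached a CPM of 1 (2 or more where the smallest group has 2), with Benjamini-Hochberg adjustment over all of them. A gene was called at an adjusted p under 0.05 and at least 2-fold on that scale. Rod age entered as log2 postnatal day, without P5. The procedure was tested on simulated data. All 33 columns were used and 0 left out, and no 2 columns were identical.

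Id1 to Id4 are given in every comparison, for each list up to 4 members with the largest called change are eligible to be named, and for each Id gene the 5 genes most alike by Pearson's r. Some genes that this rule names are not reported here. Further genes of the lists given by mean level, such as Bmp4, were picked after their values were seen. The members and lists were chosen with earlier results of these data known. Alternatives covered the pseudocount, the filter, 2 scalings, the variance prior, the fold threshold, left-out libraries and a replicate block.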

Additional observations from a re-analysis of the deposited data

How the results depend on the processing

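Depth is unknown, so the error of values near 0 CPM (Id4 in P5 rods, Id1 and Id4 in P28 rods) cannot be given. Of 606 values of the Id genes under alternatives, 582 kept their direction and their side of the threshold, 10 lost the call, 8 gained it and 6 changed sign. The sign changes were all in differences near 0. In day 5 against MEF, Id2 (-0.01) ranged from -0.04 to 0.03 over single left-out libraries, being 0.03 without MEF replicate 1 and 0.01 without day 5 replicate 3. In CiPC against MEF, Id4 (0.01) was -0.13 after quantile normalization and ranged from -0.09 to 0.12 over left-out libraries, being -0.09 without MEF replicate 2, -0.01 without MEF replicate 3 and -0.04 without CiPC replicate 3. Calls lost, all through the 2-fold limit unless an adjusted p is given, were Id1 at -0.85 (pseudocount 5) and Id3 at -0.93 (quantile normalization) and -1 (without MEF replicate 3, lowest -1.16) in day 5 against MEF, Id4 at -0.66 in day 8 against day 5 (pseudocount 5), Id3 at -0.97 in CiPC against MEF (without CiPC replicate 3, range -1.39 to -0.97) and Id4 at -0.97 in P5 against P4 and P6 (pseudocount 5). With P4 and P6 rods in place of P5, chosen after seeing the data, Id4 was at 0.62 in CiPC against rods, and Id1 at -0.98, Id2 at -0.31 and Id4 at -0.61 in rods against MEF. Without a fold threshold, Id4 at -0.65 (day 5), Id1 at -0.65 and Id2 at -0.85 (day 8), Id1 at 0.75 (CiPC against MEF) and Id1 at -0.93 (P5 against P4 and P6) passed as well. The latter also passed at -1.48 against the mean of P2, P4 and P6, and ranged from -1.3 to -0.57 over left-out libraries. The cause of these changes was not tested beyond the thresholds themselves.

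Counts of called genes with a pseudocount of 5 were 2465 in place of 3860 (day 5 against MEF), 445 in place of 877 (day 8 against day 5) and 1668 in place of 2910 (P5 against P4 and P6). Without a fold threshold they were 11010 and 6575 in the first 2 of these, 10360 in place of 4392 (CiPC against day 8), 10931 in place of 4626 (CiPC against MEF), 11609 in place of 5865 (CiPC against P5), 12785 in place of 7744 (P5 against MEF) and 8954 in P5 against P4 and P6. Other scalings moved the median of all genes by over 0.1: from -0.03 to -0.21 in CiPC against P5, from -0.09 to 0.10 in P5 against MEF, from -0.24 to 0.06 in P28 against P2 and from -0.31 to 0.07 in the age slope, all with quantile normalization, and to -0.09 and -0.18 in the last 2 with median-of-ratios scaling. Quantile normalization also changed the split of calls, from 3365 higher and 2500 lower to 2847 and 3361 in CiPC against P5, from 2769 and 4307 to 3365 and 3044 in P28 against P2, and from 2978 and 4520 to 3472 and 3252 in the age slope. With some libraries left out, Id4 in the 2 comparisons of P5 with the culture, and Id1 and Id4 in P28 against P2, fell under the filter and gave no value.

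Replicate numbers did not pair the samples: correlations of same-numbered libraries ran from -0.443 to 0.183. A replicate block changed no call of an Id gene, with Id3 in CiPC against MEF at -1.19 (adjusted p = 0.00126, limma) and 4625 genes called there with the block.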
